A study of Rattus norvegicus with 4 samples.

Results

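The genes described here are 10 heat shock chaperones of the rat: Hspa1a, Hspa1b, Hspa8, Hsp90aa1, Hsp90ab1, Hsph1, Dnajb1, Hspe1, Hspd1 and Hspa5. They were chosen by gene symbol, with earlier results of these data known. All 10 are among the 25340 genes listed in the deposited count tables. Blood cells were profiled by droplet single-cell RNA sequencing, with 1 library in each of 4 groups, named Sham, SCI, MSC-i.t, MSC-i.v. SCI stands for a spinal cord injury made by Allen's weight-drop method, without cells. MSC-i.t and MSC-i.v were injured rats that also received umbilical cord mesenchymal stromal cells, intrathecally at 10000000 cells/kg or intravenously at 30000000 cells/kg, in 2 doses at 72 hours and 7 days after injury. The labels count 40 rats, 10 per group, and word the design as if all of them had been injured, so what the Sham operation was is not clear from them. The age and strain of the rats, the number of rats behind a library and the time of the blood draw are not given in the sources used here. The data set of SCI is named with a different time tag from the one that Sham and the treated groups share. The treated groups differ from each other in route and in dose together.

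Chaperones bind proteins that are not yet folded, or that have unfolded, and keep them from clumping until they reach their working shape. Some are made all the time, and others are switched on when heat shock factor binds heat shock elements, runs of short GAA and TTC units, in front of their genes. In blood leukocytes the inducible ones are known to rise with fever, activation and handling of the cells, while Hspa5 in the endoplasmic reticulum (ER) is known to rise with the load of secreted protein, as in antibody-secreting cells.

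Stretches of promoter with heat shock or ER stress elements are shown first, because they show which of these genes carry letters matching the sites of either response. Binding to them was not measured. RefSeq promoters of assembly GRCr8 were at hand for 8 of the 10 genes, and the 250 bases before each start were searched on both strands. A heat shock element of 2 units was searched as GAANNTTC or TTCNNGAA, and one of 3 units as GAA, TTC, GAA or TTC, GAA, TTC with NN between neighbours, so every 3-unit match holds 2-unit matches. The ER stress element was searched as CCAAT, then NNNNNNNNN, then CCACG, and as its complement. Capitals mark the units found.
Hspa8, chr8:50080293-50080321, plus strand: gcgagcgtGAAagTTCcaGAAcgctgcgg
Hspa8, chr8:50080451-50080479, plus strand: cggaacccTTCtgGAAggTTCtaagacag
Hsph1, chr12:10427324-10427352, plus strand: gccgcagaTTCtgGAAagTTCtcctcagt
Dnajb1, chr19:41431142-41431163, minus strand: cgggaggggcgGAAggTTCtgg
Hspe1, chr9:64084256-64084285, plus strand: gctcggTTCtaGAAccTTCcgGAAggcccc
Hspd1, chr9:64084256-64084285, minus strand: ggggccTTCcgGAAggTTCtaGAAccgagc
Hspa5, chr3:38452968-38452996, plus strand: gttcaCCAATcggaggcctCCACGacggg
A 3-unit element lay in front of 4 of the 8 genes (Hspa8, Hsph1, Hspe1 and Hspd1), against 0.6633% of 33469 promoters in the table. A 2-unit element lay in front of 5 of the 8, Dnajb1 being the added one, against 13.55% of promoters. The ER stress element was found in front of Hspa5 only, against 0.06573% of promoters. Hspe1 and Hspd1 lie head to head on chromosome 9, and the run of 4 units printed for both is the same stretch read from either strand. The printed stretch, flanks included, ends 42 bases before the Hspe1 start and 219 bases before the Hspd1 start. The windows of Hspa1a and Hsp90ab1 held no match to these letters, which does not show that these genes lack such sites elsewhere or with other letters.

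Each library held 63133881 to 91124523 UMIs (molecular tags that count captured RNA molecules), and 8527 to 16998 barcodes passed 500 UMIs and 200 genes. Of those barcodes 40.8% to 47.0% entered a gate built from marker genes that include none of the chaperones, and no barcode entered more than one. T cells were gated on Cd3 genes with Cd4 or Cd8b, NK cells on genes such as Ncr1 and Prf1, B cells on genes such as Cd79a and Ms4a1, and monocytes on genes such as Csf1r and Cd68. The gates held, per library, 608 to 787 CD4-like and 1434 to 1938 CD8-like T cells, 135 to 254 NK-like, 569 to 1817 B-like, 213 to 1059 monocyte-like and 349 to 2232 erythroid-like cells. B and T cell markers kept out of the gates followed the names: B cell markers summed to 11373 to 12506 CPM (counts scaled to a total of 1000000) in B-like cells, and T cell markers to 802 to 933 CPM in T-like cells against 34.6 to 44.2 in B-like cells. The T cell list also reached 1140 to 1279 CPM in NK-like cells, which share Cd2 and Lck with T cells. Monocyte-like cells also held UMIs of other lists. The B cell list, which includes Cd74, summed to 610 to 1340 CPM there, against 26.5 to 161 in T-like and NK-like cells. Neutrophil markers, among them S100a8 and S100a9, summed to 2241 CPM in Sham, 586 in SCI, 1392 with MSC-i.t and 1978 with MSC-i.v. Whether these UMIs came from other cells in the gate or from the monocytes themselves was not tested. Their part in the monocyte-like results was not tested either. Barcodes shared by a pair of libraries numbered 28 to 51, at most 0.586% of either. The SCI library stood apart: its log2 ratios to Sham over all genes had a standard deviation of 0.50 to 0.58 in the leukocyte classes, against 0.26 to 0.38 for the treated libraries over Sham. The MSC-i.v library was the shallowest per barcode, with a median of 3764 UMIs against 4918 to 5719.

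Among the inducible HSP70 genes, which cells make most strongly after heat or other proteotoxic stress, almost nothing was counted. Hspa1a was listed at 0 UMIs in every kept barcode of all libraries. Hspa1b had 9 UMIs in Sham, 7 in SCI, 33 with MSC-i.t and 17 with MSC-i.v, all of them in 27 barcodes. Hspa1a and Hspa1b encode nearly identical proteins, and how reads matching both were counted is not given, so their split is uncertain. Hsp90aa1, the inducible cytosolic HSP90, had 1 UMI over all kept barcodes, in a CD4-like cell of MSC-i.t. RefSeq names 14 pseudogenes after Hsp90aa1, and whether reads were lost to such copies was not tested, so these values show what was counted and not that the genes were silent. RefSeq also names 33 pseudogenes after Hspa8, 22 after Hsp90ab1 and 20 after Hspd1. No fold was computed for Hspa1a, Hspa1b or Hsp90aa1, which left 7 genes for the comparisons.

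Summed as groups, the few barcodes with Hspa1b UMIs held several other chaperones at high level. At least 2 Hspa1b UMIs were found in 11 barcodes, 1 in Sham, 2 in SCI, 4 with MSC-i.t and 4 with MSC-i.v, and the largest count was 15, in a CD8-like cell of MSC-i.t. In those 11 barcodes Hsph1, the HSP110 partner of HSP70, stood at 693 CPM (95% counting interval 482 to 963), against 25.2 CPM in the 47409 barcodes without Hspa1b. That is a ratio of 27.5. Dnajb1, the HSP40 that hands clients to HSP70, stood at 277 CPM against 26.9, a ratio of 10.3 from 14 UMIs, of which MSC-i.t held 9 and SCI 0. Without MSC-i.t the ratio was 5.40. The mitochondrial pair followed with ratios of 5.28 for Hspd1 and 4.34 for Hspe1, then the constitutive HSP70 gene Hspa8 with 3.87, Hsp90ab1 with 2.95. Hspa5 was at 2.60, but 15 of its 19 UMIs came from MSC-i.v, and without that library the ratio was 0.88. Leaving out any one library kept the ratio of Hsph1 between 22.7 and 32.0 and that of Hspa8 between 3.38 and 4.27. In the 16 barcodes with a single Hspa1b UMI the ratios were 4.82 for Hsph1, 4.18 for Dnajb1, 2.82 for Hspa5, 2.21 for Hspa8, 1.85 for Hsp90ab1, 1.27 for Hspe1 and 0.99 for Hspd1. Single barcodes differed widely. Among the 11, Hsph1 ranged from 0 to 2078 CPM and Dnajb1 from 0 to 828 CPM. The 11 barcodes were 4 monocyte-like cells, 1 each of the CD4-like, CD8-like and B-like classes and 4 outside the gates. They were set apart by their Hspa1b count and come from 4 libraries, so these are descriptions with no test. The barcodes without Hspa1b include every erythroid-like cell, a class with little chaperone RNA. Monocyte-like cells as a class stood at 37.7 to 78.1 CPM for Hsph1, 1795 to 2251 for Hsp90ab1 and 299 to 327 for Hspa5. The part of cell class in the ratios was not tested. Leaving all 27 barcodes out changed no count of chaperones past 1.5-fold between libraries.

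**Figure D1:**
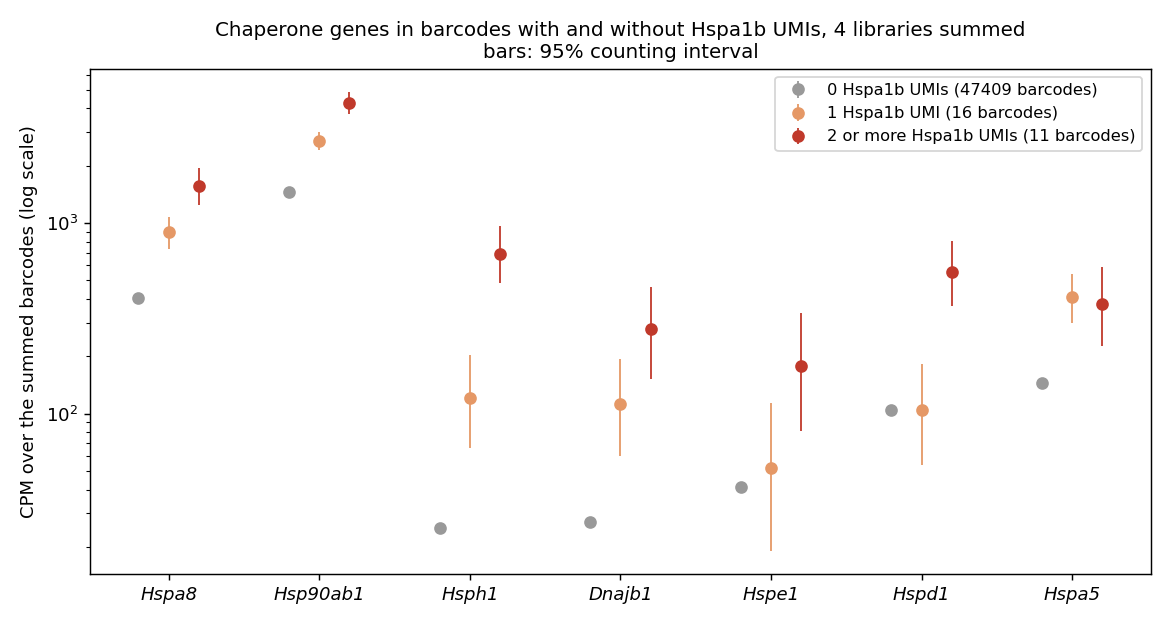
CPM (log axis) of the 7 counted chaperones in barcodes with 0, 1, or 2 or more Hspa1b UMIs, summed over the 4 libraries, with 95% counting intervals. Barcodes with 2 or more Hspa1b UMIs lie 27.5-fold above those with none for Hsph1. For Hspa5 they lie below the barcodes with 1 UMI, and without MSC-i.v below those with none.

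Levels by cell class were compared next, with the 4 libraries as units and library as a block, each leukocyte class against the mean of the other 4 (edgeR quasi-likelihood test, p-values adjusted over 9638 genes). The libraries differ in treatment. The block takes off differences between libraries that all classes share. Differences between treatments that vary by class stay in the spread behind these tests. By CPM the constitutive cytosolic chaperones were highest in NK-like cells. Hspa8, the everyday HSP70, stood in NK-like cells at 507 CPM in Sham, 802 in SCI, 730 with MSC-i.t and 737 with MSC-i.v. In B-like cells it stood at 348, 468, 412 and 448 CPM in the same order. Every NK-like value lay above every B-like value, with a ratio of 1.46 to 1.77 within each library. In the fit Hspa8 was lower in B-like cells (log2 difference -0.63, SE 0.05, adjusted p = 3.2e-13) and higher in NK-like cells (0.18, SE 0.05, adjusted p = 0.0037). In CD4-like and CD8-like T cells it was called higher (0.12 and 0.26), but both signs turned, to -0.027 and -0.047, when library totals replaced the TMM scaling factors. The CD4-like call was also lost without Sham, MSC-i.t or MSC-i.v (adjusted p = 0.060, 0.101 and 0.075). Mean CPM of Hspa8 in these T cells, 537 and 531, lay between those of B-like and monocyte-like cells, and its CD4-like, CD8-like and monocyte-like ranges overlapped.

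Hsp90ab1, the constitutive cytosolic HSP90, followed the same order at both ends. It stood in NK-like cells at 2536 CPM in Sham, 3256 in SCI, 2715 with MSC-i.t and 3046 with MSC-i.v. In B-like cells the values were 1567, 1840, 1645 and 1751 CPM. The ranges did not overlap, and NK-like cells were also above CD8-like cells, the next class, in every library. The log2 differences were 0.35 (SE 0.04, adjusted p = 7.9e-09) for NK-like cells, 0.35 (SE 0.04, adjusted p = 2.2e-09) for CD8-like cells and -0.52 (SE 0.04, adjusted p = 1.3e-12) for B-like cells. CD4-like cells were slightly lower, at -0.11, a call lost without Sham (adjusted p = 0.104). Without TMM factors the CD8-like difference shrank to 0.036 and was no longer called.

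Hsph1 was highest in monocyte-like cells instead. It stood there at 37.7 CPM in Sham, 49.2 in SCI, 78.1 with MSC-i.t and 70.3 with MSC-i.v, and in CD8-like cells at 23.0, 27.3, 28.7 and 38.6 CPM. Monocyte-like cells were above CD8-like cells in all 4 libraries, 1.64-fold to 2.72-fold, although the lowest monocyte-like value lay under the highest CD8-like one. The fit gave 0.71 (SE 0.09, adjusted p = 1.9e-08) for monocyte-like cells and -0.28 (SE 0.09, adjusted p = 0.010) for B-like cells, the latter lost without TMM factors. Dnajb1 was higher in monocyte-like cells by 0.21 (SE 0.09, adjusted p = 0.039), a call lost when SCI, MSC-i.t or MSC-i.v was left out. Its differences in the other classes lay between -0.11 and 0.03 and did not pass. Neighbouring classes in the order of Dnajb1 levels overlapped throughout, and in Sham the B-like (48.6 CPM) and NK-like (38.4 CPM) values were above the monocyte-like one (33.6 CPM).

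Of the 7 genes, Hspe1 of the mitochondrial chaperonin had the widest spread over the leukocyte classes. Hspd1 forms the folding chamber in the mitochondrial matrix and Hspe1 its lid. Hspe1 stood in CD8-like cells at 60.1 CPM in Sham, 75.1 in SCI, 68.6 with MSC-i.t and 63.1 with MSC-i.v, and in monocyte-like cells at 20.0, 20.3, 17.3 and 20.3 CPM. The ranges lay far apart, with a ratio of 3.00 to 3.97 within each library. CD8-like cells were higher by 1.14 on the log2 scale (SE 0.06, adjusted p = 1.2e-16) and CD4-like cells by 0.71 (SE 0.08, adjusted p = 4.0e-09), while B-like cells were at -0.68 and monocyte-like cells at -1.37 (SE 0.11, adjusted p = 1.1e-12). NK-like cells had a difference of 0.20 that did not pass. Hspd1 ran the same way at smaller size. It was higher in CD8-like (0.69, SE 0.05), CD4-like (0.41) and NK-like cells (0.29), and lower in B-like (-0.51) and monocyte-like cells (-0.88, SE 0.07, adjusted p = 1.3e-12). Both genes kept these signs under every scaling run.

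Hspa5, also known as BiP, binds new chains in the ER and restrains the sensors of the unfolded protein response. It stood in monocyte-like cells at 299 CPM in Sham, 327 in SCI, 321 with MSC-i.t and 304 with MSC-i.v, and in NK-like cells at 253, 269, 274 and 301 CPM. Both classes lay above the highest CD4-like value of 189 CPM. The fit gave 0.68 for monocyte-like cells (SE 0.06, adjusted p = 2.5e-11), 0.27 for NK-like cells (SE 0.08, adjusted p = 0.0066) and -0.83 for B-like cells (SE 0.07, adjusted p = 4.6e-12). The NK-like call was lost without MSC-i.v (adjusted p = 0.087). CD4-like and CD8-like cells, at -0.08 and -0.03, did not pass.

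**Figure D2:**
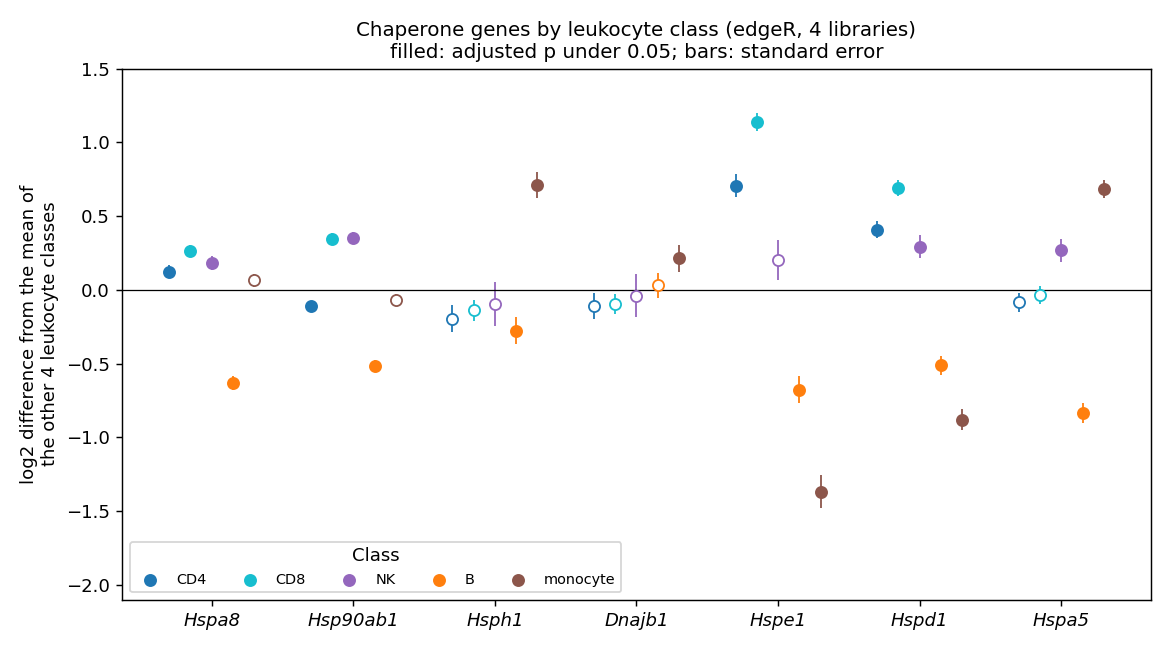
log2 difference of each leukocyte class from the mean of the other 4 (y axis) for the 7 counted chaperones (x axis), from 4 libraries; filled points have an adjusted p under 0.05 and bars are standard errors. Hspe1 runs from 1.14 in CD8-like cells to -1.37 in monocyte-like cells, while Hsph1 and Hspa5 peak in monocyte-like cells; without TMM factors the Hspa8 points of CD4-like and CD8-like cells fall to -0.027 and -0.047.

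Counted by class, 4 of the 7 chaperones were called in CD4-like cells, where 50.7% of all genes were, 4 in CD8-like cells (59.5% of all genes), 4 in NK-like cells (35.2%), 6 in B-like cells (55.2%) and 5 in monocyte-like cells (74.3%). In CD4-like, CD8-like and monocyte-like cells the chaperones were called about as often as all genes were. In NK-like and B-like cells their share was higher than that of all genes, a difference not tested on 7 genes. Directions were lopsided in some classes: all 6 in B-like cells were lower, and all 4 in CD8-like and in NK-like cells were higher. Dropping the TMM factors moved the median gene by -0.31 in CD8-like, -0.15 in CD4-like, 0.16 in B-like and 0.24 in NK-like cells, and it moved the calls over all genes in CD8-like cells from 3002 higher and 2732 lower to 1501 higher and 5070 lower. In CD4-like cells the split of all genes went from 2472 higher and 2418 lower to 1707 and 3502, in NK-like cells from 1728 and 1662 to 2919 and 887, and in B-like cells from 2783 and 2536 to 3870 and 1771. The chaperones were then 2 higher and 3 lower in CD8-like cells, 2 higher and 4 lower in CD4-like cells, 5 higher in NK-like cells, and 5 lower in B-like cells.

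**Figure D3:**
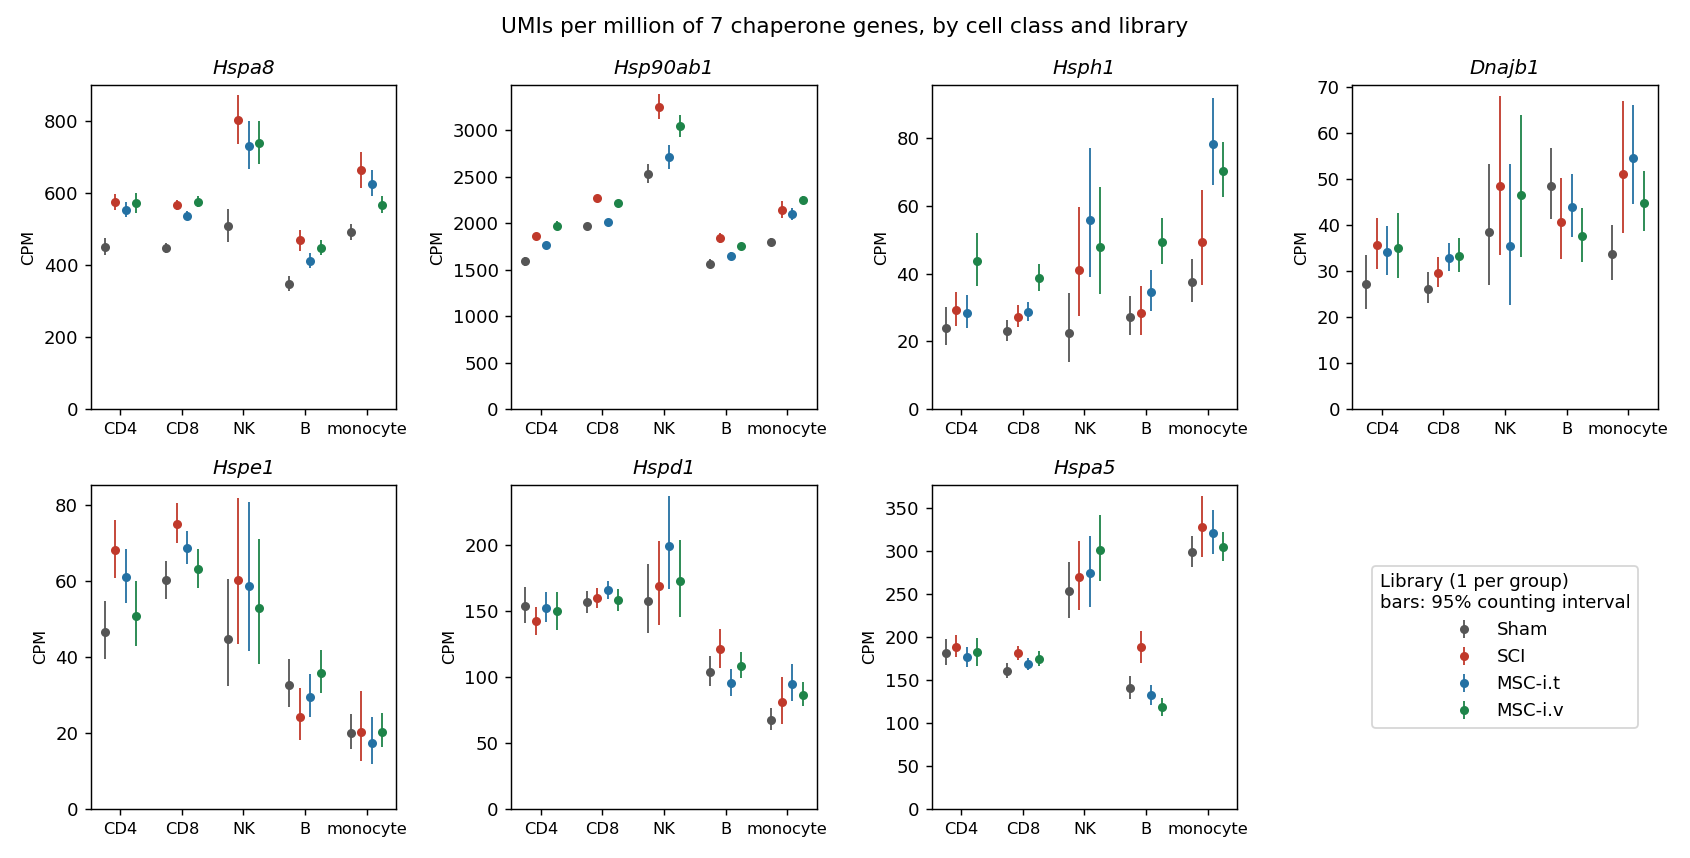
CPM of the 7 counted chaperones by leukocyte class (x axis) and library (colour), 1 point per library with its 95% counting interval. Sham is the lowest of the 4 libraries in each class for Hspa8, Hsp90ab1 and Hsph1.

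Other folding genes were taken as lists by compartment, and their counts stand beside the 50.7% (CD4-like), 59.5% (CD8-like), 35.2% (NK-like), 55.2% (B-like) and 74.3% (monocyte-like) of all genes called. Of the 8 subunits of TRiC, the cytosolic chaperonin that folds actin and tubulin, 8 were higher in CD8-like cells and 7 in CD4-like cells (median log2 differences 0.42 and 0.24, against medians near 0 for all genes), and 6 were lower in monocyte-like cells (-0.43). Without TMM factors 5 were higher and 1 lower in CD8-like cells, and 3 higher and 1 lower in CD4-like cells. The subunits Tcp1 and Cct2 each stood at 0.47 in CD8-like cells, and at -0.79 and -0.54 in monocyte-like cells. Of 21 ER chaperones and unfolded protein response genes, 16 were higher in monocyte-like cells and 0 lower (median 0.67), while 13 were lower in CD4-like and 13 in CD8-like cells; these directions held under every scaling run. The monocyte-like count is near the share of all genes called there. Dnajb9, an ER partner of BiP, was at 0.25 in monocyte-like cells, with a larger difference in B-like cells (1.32, SE 0.07, adjusted p = 1.3e-16). Hyou1, the ER relative of HSP110, passed in none of the classes, with differences of -0.19 to 0.23.

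Of 8 further mitochondrial chaperones and proteases, 4 were higher in CD8-like cells and 3 were lower in monocyte-like cells (medians 0.15 and -0.16), in both classes a smaller share than that of all genes. The sign of the CD8-like median turned to -0.15 without TMM factors. Hspa9, the mitochondrial HSP70, was at 0.44 in CD8-like cells, a call lost without TMM factors, and at -0.91 in monocyte-like cells (adjusted p = 4.3e-09), while Trap1, the mitochondrial HSP90, lay between -0.19 and 0.16 and passed in none of the 5 classes. Of 23 tested cytosolic cochaperones, 9 were higher and 7 lower in CD8-like cells (2 and 15 without TMM factors), and 2 were higher and 7 lower in monocyte-like cells. Among them Bag1, which releases clients from HSP70, was higher in NK-like cells (0.74, SE 0.09). Hspa14, a ribosome-bound HSP70, was lower in monocyte-like cells by 0.46. The heat shock factors were counted at low level, and Hsf1 was at 0.29 in CD8-like cells (adjusted p = 0.0040) and -0.38 in B-like cells (adjusted p = 0.0051), but without TMM factors the CD8-like sign turned and the B-like call was lost. Hsf2 was higher in B-like cells (0.71, SE 0.14) and lower in NK-like cells (-0.74), the latter lost with DESeq2 and without TMM factors. Of 9 tested early genes that respond to cell handling, 5 were higher in monocyte-like cells and 7 lower in CD8-like cells; Dusp1, a phosphatase gene of this kind, was at 3.43 and -1.25, while Jund was at -1.31 in monocyte-like cells.

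Erythroid-like cells, in which hemoglobin makes up at least 50% of UMIs, served as a class that should hold little chaperone RNA. Their levels were 18.3 to 31.5 CPM for Hsp90ab1, 6.45 to 11.9 for Hspa8 and under 4 for the other 5 genes. With hemoglobin UMIs left out of the total they were 40.3 to 70.0 CPM for Hsp90ab1, 14.2 to 26.4 for Hspa8 and at most 7.26 for the others. Barcodes with 10 to 100 UMIs, which hold mostly free RNA, had 295 to 415 CPM of Hspa8 and 974 to 1433 CPM of Hsp90ab1, nearer to the leukocyte levels. After thinning each cell to 2000 UMIs, Hspa8 was seen in 47.0% to 55.5% of B-like cells, 55.7% to 65.0% of CD4-like and 64.9% to 76.8% of NK-like cells, against 1.1% to 2.6% of erythroid-like cells. Unthinned, the shares were 57.4% to 71.9%, 80.3% to 92.1%, 79.9% to 91.9% and 6.9% to 9.2%. Median depths were 2052 to 3215 UMIs in B-like and 8276 to 12192 in erythroid-like cells, so the erythroid shares were low despite the deeper barcodes. Thinning left out 837 of the 1817 B-like cells of MSC-i.v, and 29 to 131 in the other libraries.

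The remaining comparisons are between libraries. With 1 library per group there is no replicate and no test, and every interval below covers counting error only. A gene was called past the fold when its CPM differed at least 1.5-fold with at least 50 UMIs over the pair of libraries. In bulk sums of a class, fewer cells with a transcript and less RNA per cell cannot be told apart. SCI over Sham and the treated libraries over Sham share the Sham library, and the treated libraries over SCI share the SCI library, so their values are set side by side only.

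For SCI over Sham, 2 of 34 chaperone values over the 5 leukocyte classes passed 1.5-fold, both higher, where 15.3% of all gene values passed in either direction. For MSC-i.t over Sham it was 3 of 35, all higher (5.26% of all gene values), and for MSC-i.v over Sham 5 of 35, all higher (5.46%). Against SCI, MSC-i.t had 1 of 35 (14.1% of all gene values) and MSC-i.v had 2 of 35, 1 in each direction (14.6%). In each comparison that involves SCI the chaperones' share was below that of all genes, and for both treated libraries over Sham it was above, all 5 values of MSC-i.v being Hsph1. These shares were not tested against each other. The medians of the chaperone log2 ratios were 0.25 for SCI, 0.23 for MSC-i.t and 0.25 for MSC-i.v over Sham, while the median over all genes by class lay between 0.03 and 0.16 for SCI over Sham and between -0.05 and 0.04 for the treated libraries. Over SCI the chaperone medians were -0.06 for MSC-i.t and -0.03 for MSC-i.v. The value left out of the 34 for SCI was Hsph1 in NK-like cells, with 49 UMIs over the pair and a log2 ratio of 0.88 (0.01 to 1.77). Of the 34 values for SCI over Sham, 31 were above 0, as were 27 of 35 for MSC-i.t and 32 of 35 for MSC-i.v over Sham. The share of all gene values above 0 was not computed, and for SCI over Sham the median over all genes was itself above 0 in each class. These values repeat the same genes over 5 classes against the same Sham library.

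Hspa8, Hsp90ab1 and Hsph1 had their lowest value in the Sham library in all 5 leukocyte classes. For Hspa8 the log2 ratio to Sham was largest in NK-like cells, at 0.66 in SCI (interval 0.48 to 0.84), 0.53 in MSC-i.t (0.34 to 0.71) and 0.54 in MSC-i.v (0.36 to 0.72). In CD8-like cells, the leukocyte class with the most UMIs, Hspa8 stood at 446 CPM in Sham, 567 in SCI, 536 with MSC-i.t and 576 with MSC-i.v. The other 3 libraries lay above Sham there, with ratios of 0.35, 0.27 and 0.37 on the log2 scale. All 15 ratios of Hspa8 to Sham had counting intervals above 0, and each stayed above 0 under all alternatives run. These ratios share the Sham library, and Hspa8 had 472 to 7434 UMIs per sum, which makes its intervals narrow. How often genes at large have such intervals, or their lowest value in Sham in every class, was not computed. Hsp90ab1 moved less, by 0.21 to 0.36 for SCI, 0.03 to 0.23 for MSC-i.t and 0.16 to 0.33 for MSC-i.v over Sham. The SCI ratio of Hsp90ab1 in CD4-like cells went to -0.01 under strict gates, which keep 19 to 45 CD4-like cells per library.

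Hsph1 gave most of the values past 1.5-fold. In CD4-like cells it stood at 24.1 CPM in Sham, 29.2 in SCI, 28.5 with MSC-i.t and 43.6 with MSC-i.v, and in B-like cells at 27.2, 28.4, 34.6 and 49.3 CPM. In both classes, and in CD8-like cells, MSC-i.v was alone at the top. In NK-like cells the values were 22.4, 41.2, 55.7 and 47.9 CPM, from 21 to 39 UMIs each, and in monocyte-like cells 37.7, 49.2, 78.1 and 70.3 CPM. In these classes MSC-i.t was the highest and MSC-i.v the next. MSC-i.v over Sham passed 1.5-fold in all 5 leukocyte classes, with log2 ratios of 0.86 in CD4-like (interval 0.43 to 1.29), 0.75 in CD8-like (0.50 to 1.00), 1.09 in NK-like (0.29 to 1.93), 0.86 in B-like (0.50 to 1.23) and 0.90 in monocyte-like cells (0.61 to 1.20). These ratios lay at or above percentile 99.2 of all genes tested in their class, and over the alternatives run they ranged from 0.69 to 1.36. MSC-i.t over Sham passed in NK-like (1.31, interval 0.50 to 2.16) and monocyte-like cells (1.05, 0.71 to 1.40). Against SCI, MSC-i.v was at 0.80 in B-like cells (0.38 to 1.23) and MSC-i.t at 0.67 in monocyte-like cells (0.20 to 1.16).

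Other measures that differ between the libraries stand beside Hsph1 as follows, and their part in its ratios was not tested except where a value is given. Barcodes of 10 to 100 UMIs, mostly free RNA, held Hsph1 at 23.2 CPM in Sham, 13.4 in SCI, 12.3 with MSC-i.t and 26.1 with MSC-i.v. Neutrophil markers, which the gates do not select for, summed in CD8-like cells to 291 CPM in Sham, 2.5 in SCI, 5.3 with MSC-i.t and 430 with MSC-i.v. Their levels were high in Sham and MSC-i.v. Platelet markers in CD8-like cells summed to 121 CPM in Sham, 43.0 in SCI, 91.6 with MSC-i.t and 93.0 with MSC-i.v. In monocyte-like cells they were far higher, at 1316, 954, 1696 and 892 CPM in the same order. Leaving out barcodes with platelet RNA kept the MSC-i.v ratio of Hsph1 in CD4-like cells at 0.91. After thinning to 2000 UMIs, Hsph1 was seen in 9.2% of CD4-like cells of MSC-i.v, against 5.1% in Sham, 4.5% in SCI and 4.6% in MSC-i.t, and unthinned in 15.8%, 11.5%, 16.1% and 15.4%. The thinned share in erythroid-like cells was 0% to 0.3%.

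Dnajb1, which acts with Hsph1 and HSP70, did not show the same order. In CD4-like cells it stood at 27.2 CPM in Sham, 35.7 in SCI, 34.1 with MSC-i.t and 35.0 with MSC-i.v, the other 3 libraries lying close together above Sham. In monocyte-like cells the values were 33.6, 51.1, 54.5 and 44.9 CPM, which put SCI (log2 ratio 0.60, interval 0.11 to 1.08) and MSC-i.t (0.70, 0.31 to 1.08) past 1.5-fold over Sham. The SCI value fell below that fold, to 0.45, once the median ratio of all genes was taken off. In B-like cells Sham had the highest Dnajb1, with 48.6 CPM against 40.8, 43.9 and 37.6.

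The mitochondrial pair had no value past 1.5-fold between libraries. Hspe1 in CD4-like cells stood at 46.6 CPM in Sham, 68.1 in SCI, 61.0 with MSC-i.t and 50.8 with MSC-i.v, and the SCI ratio of 0.55 (0.26 to 0.84) stayed under 1.5-fold. In B-like cells Hspe1 stood at 32.7, 24.3, 29.5 and 35.8 CPM, and SCI was the lowest there (-0.43 over Sham, -0.93 to 0.06). MSC-i.v over SCI was 0.56 in B-like cells (0.10 to 1.04) and -0.42 in CD4-like cells (-0.72 to -0.13). Hspd1 in CD4-like cells stood at 154, 142, 153 and 150 CPM, with all intervals for the ratios to Sham crossing 0. In CD8-like cells Hspd1 lay between 157 and 166 CPM in all libraries, the narrowest range of any leukocyte class. In monocyte-like cells Hspd1 was at 67.8 CPM in Sham, 81.1 in SCI, 94.9 with MSC-i.t and 86.7 with MSC-i.v, with ratios to Sham of 0.48 (0.20 to 0.77) for MSC-i.t and 0.35 (0.12 to 0.59) for MSC-i.v.

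**Figure D4:**
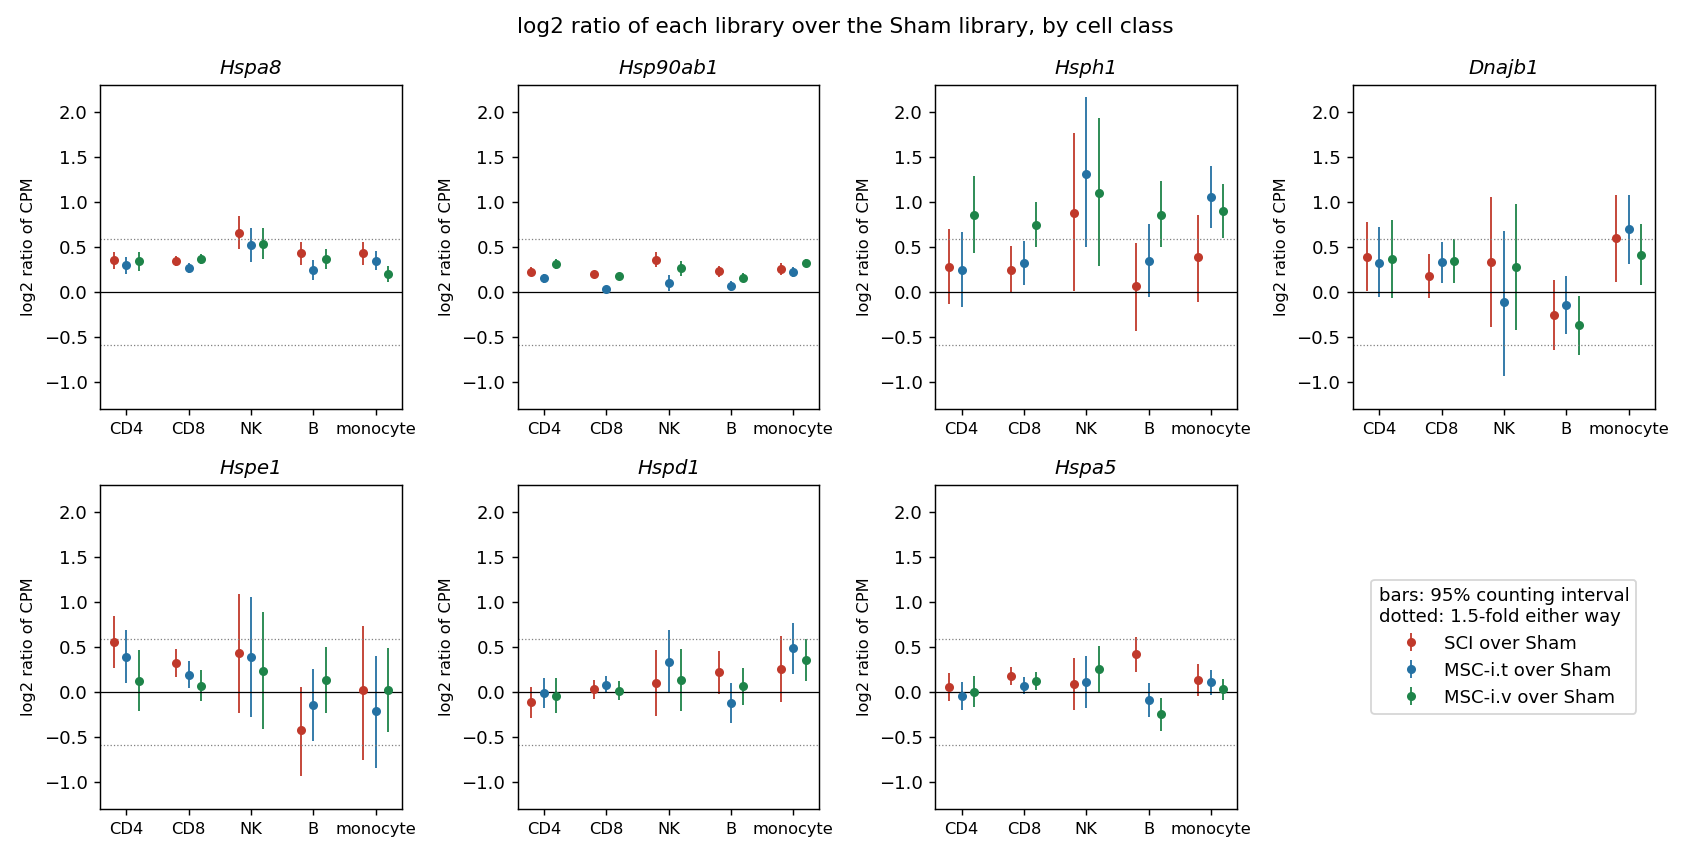
log2 ratio of CPM of the SCI library and of both treated libraries over the Sham library (y axis) by leukocyte class (x axis), with 95% counting intervals; all points share the Sham library, and dotted lines mark 1.5-fold. Hsph1 of MSC-i.v lies past the upper line in all 5 classes, and Hspa8 lies above 0 in every class and library.

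Outside B-like cells the log2 ratios of Hspa5 to Sham lay between -0.04 and 0.25. In B-like cells the SCI library was the highest. Hspa5 stood there at 141 CPM in Sham, 188 in SCI, 132 with MSC-i.t and 118 with MSC-i.v, and MSC-i.v over SCI was past 1.5-fold (log2 ratio -0.67, interval -0.86 to -0.48). Genes listed as plasma cell markers also peaked in SCI. Jchain, which joins secreted antibodies, stood at 18.6, 49.0, 17.8 and 15.6 CPM in the same order, and Tnfrsf17, the BCMA receptor, at 29.6, 61.8, 25.3 and 29.6. All 6 listed plasma cell markers (Jchain, Mzb1, Tnfrsf17, Prdm1, Sdc1 and Xbp1) were highest in SCI. Counts per library were low for Sdc1 (1 to 5 UMIs), Prdm1 (8 to 20) and Xbp1 (11 to 22). Mzb1 had the largest counts, 632 to 977 UMIs per library, against 61 to 135 for Jchain and Tnfrsf17. A choice of barcodes by these markers therefore rests largely on Mzb1. Whether such barcodes were antibody-secreting cells was not tested. Barcodes with at least 2 UMIs of the 6 markers together made up 12.9% of B-like cells in Sham, 11.8% in SCI, 8.4% with MSC-i.t and 6.2% with MSC-i.v. This cutoff is a raw count without thinning, so the split depends on depth. Median depths of B-like cells were 2685, 3215, 3045 and 2052 UMIs in the same order, and their part in the split was not tested. In the barcodes that met the cutoff Hspa5 stood at 268 CPM in Sham, 496 in SCI, 294 with MSC-i.t and 200 with MSC-i.v. These barcodes held 53.2% of the Hspa5 UMIs of the SCI class. In the other B-like barcodes it stood at 115, 110, 106 and 107 CPM, with overlapping intervals. The ratio of MSC-i.v over SCI was then -0.036, and that of SCI over Sham went from 0.42 to -0.057. Without the deepest 5% of barcodes the ratios were 0.021 for MSC-i.v over SCI and -0.27 for SCI over Sham. The plasma cell markers were listed after the values were seen.

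**Figure D5:**
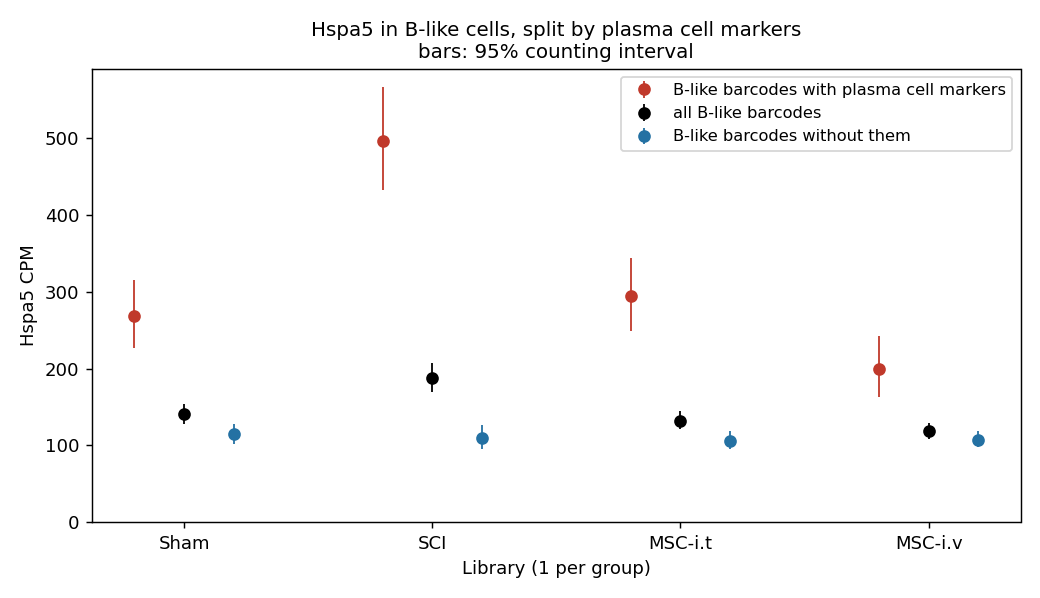
Hspa5 CPM (y axis) in B-like cells of each library (x axis), for all barcodes and split by at least 2 UMIs of plasma cell markers, with 95% counting intervals. Barcodes without the markers lie between 106 and 115 CPM in all libraries, while those with them reach 496 CPM in SCI.

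Other ER genes of B-like cells were also higher in SCI. Of 19 ER list genes with enough UMIs, 6 were at least 1.5-fold higher in SCI than in Sham and 0 lower, where 12.3% of all genes passed (591 higher and 204 lower of 6448), with a median of 0.39 against 0.03 for all genes. The protein disulfide isomerase gene Pdia4 had the largest ratio, at 1.58. In the other leukocyte classes 0 to 2 genes of that list were past the fold upwards, and their medians were -0.03 to 0.09.

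Lists of related genes gave few values past the fold in CD4-like cells for SCI over Sham, where 13.3% of all genes passed (745 higher and 154 lower of 6751). Of 22 cytosolic cochaperones with enough UMIs 2 were higher and 0 lower, a share below that of all genes, and the extremes were Bag1 at 1.63 (interval 1.30 to 1.96) and Hspa14 at -0.29. Bag1 stood at 29.4 CPM in Sham, 90.7 in SCI, 26.0 with MSC-i.t and 45.4 with MSC-i.v, high in SCI. Of 5 early genes 1 was past the fold, Jund at 2.07, with 112 CPM in Sham, 470 in SCI, 124 with MSC-i.t and 112 with MSC-i.v; Dusp1 was at 0.04. None of the 3 tested genes on the heat shock factor list passed 1.5-fold there. They were the factors Hsf2 (0.03) and Hsf1 (-0.13), and Hsbp1, a heat shock factor binding protein. None of 8 TRiC subunits (Tcp1 0.20, Cct2 -0.07), 19 ER genes (Dnajb9 0.45, Hyou1 -0.41) or 8 mitochondrial chaperones (Hspa9 0.47, Trap1 -0.21) passed it either. Intervals for the heat shock factors were wide, for example -0.66 to 0.40 for Hsf1, so smaller shifts were not detectable at this depth.

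Genes whose levels ran most like the cytosolic chaperones were sought over the 20 sums of library and leukocyte class, among 4493 genes, with the mean standardised level of Hspa8, Hsp90aa1, Hsph1 and Dnajb1. The closest were Tmem33 (Pearson r 0.76), Ifi47 (0.75), Irf1 (0.72), Ddi2 (0.72) and LOC100362432 (0.70). Ifi47 and Irf1 are genes known to respond to interferon. The closest to Hspa5 were Cap1 (0.95), Itgb2 (0.95), Txn1 (0.95), Itgal (0.95) and Slfn4 (0.94), of which Itgb2 and Itgal encode leukocyte integrin chains. The 20 points share 4 libraries and 5 classes, so these are descriptions. Hsp90aa1 was at 0 in all but 1 of them, yet standardising gave its single UMI the same weight as each other gene of the cytosolic profile. The r values and the order of genes for that profile therefore rest in part on that UMI. Hsp90ab1 was not part of the profile.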

How the data were processed

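The deposited values are raw UMI counts for each gene in each barcode. Per the file headers they come from Cell Ranger 4, and the submitters' processing notes name the build mRatBN7.2. The labels' protocol describes bulk RNA and was not used. The tables list 6794880 barcodes per library, so cells were selected here (at least 500 UMIs and 200 genes) and gated on markers. No doublet caller was run. Both gene IDs named Hspa8 were summed. Counts per library and class were scaled to CPM with exact Poisson 95% intervals, and ratios have exact conditional binomial intervals. Classes were compared with edgeR 4.0.16 (TMM, filterByExpr, library as a block), Benjamini-Hochberg adjusted over all genes tested, in R 4.3.3; DESeq2 1.42.0 was an alternative. Shares with a UMI were taken after thinning cells to 2000 UMIs. The steps were tested on simulated data. Named list genes are those with the largest and smallest ratio of SCI over Sham in CD4-like cells; Pdia4 and the plasma cell markers were chosen after seeing the data. The chaperones and lists were chosen with earlier results of these data known.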

Additional observations from a re-analysis of the deposited data

How the results depend on the processing

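Counts of chaperone values past 1.5-fold moved with the processing. For SCI over Sham the 2 values became 1 without barcodes with platelet RNA, without barcodes with plasma cell markers, less the median ratio of all genes, or with the mean over cells, and 0 at a fold of 2. For MSC-i.t over SCI the 1 value became 2 under strict gates, without plasma cell marker barcodes or with the mean over cells, and 0 at a fold of 2. For MSC-i.v over SCI the 2 values became 5 without platelet barcodes or less the median, 1 without plasma cell marker barcodes, and 0 at a fold of 2. For MSC-i.v over Sham the 5 values became 1 at a fold of 2. Among single values between libraries, 1641 of 1714 stayed inside the counting interval of the main value, and 72 moved out of it. A value inside its interval can still lose or gain the 1.5-fold call. Only 1 value past the fold changed sign: Hspa5 in B-like cells, MSC-i.v over SCI, at 0.021 without the deepest 5% of barcodes. Sign changes of values not past the fold were not counted as reversals.

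By class, the 4 calls in CD4-like cells became 2 to 4 when 1 library was left out and 1 under strict gates, which keep few cells. Of 385 single class values 355 kept their verdict, 12 gained a call, 16 lost one, and 2 reversed without TMM factors: Hspa8 in CD4-like cells at -0.027 and in CD8-like cells at -0.047. Causes were not tested. Between groups no paired analysis was possible because each group has 1 library, while classes were compared within libraries. Platelet, plasma marker, Hspa1b, leave-one-library-out ratios of Hspa1b barcodes and no-TMM alternatives were added after seeing the data, except that leaving out platelet barcodes between libraries was planned. Few UMIs (21 to 39 for Hsph1 in NK-like cells) limit the smaller classes.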
